A study of Mus musculus with 161 samples.

Results

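The genes described here build and fill the lysosome. They comprise the proton pump that acidifies it, its membrane proteins, and the enzymes, lipid carriers and other soluble proteins inside it. They were taken by name: every symbol that begins with Atp6v or Atp6ap, and 24 listed lysosome genes. The table holds 49 such rows, of which 4 (Atp6ap1l, Atp6v0e2, Atp6v1b1 and Atp6v1e2) were listed at 0 in every cell. The remaining 45 genes, of 24500 rows above 0 in at least 1 cell, are 21 pump genes and 24 other lysosome genes.

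The expression of these genes was followed over 161 single mouse cells of strain C57BL/6, all untreated, in 3 sorted populations of the monocyte line. The first held 66 common monocyte progenitors (cMoP), taken from bone marrow through a gate of no lineage markers, no CD135, and CD117+, CD115+ and Ly6C+. The next held 57 bone marrow monocytes (marrow monocytes), which lacked CD117 and otherwise met the same gate. The last held 38 blood monocytes with high Ly6C, sorted as CD115+, CD11b+ cells. Each cell gave 1 library on a microfluidic chip, and the values are TPM, a measure of transcript abundance, scaled for transcript length and to a fixed total per cell. The labels name no animal, so each population counts as 1 sample. No test between populations was run, and spreads are those between cells.

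Lysosomes are the acidic compartments in which cells break down what they engulf and their own worn parts. The V-ATPase pump has a V1 sector in the cytosol that splits ATP and a V0 sector in the membrane that carries protons. The enzymes work at the acid pH it creates, and saposins and other small carriers present membrane lipids to them. In mononuclear phagocytes the lysosome digests phagocytosed cells and microbes. The transcription factor TFEB and its relatives MITF, TFE3 and TFEC drive many lysosome genes through a promoter element known as the CLEAR element.

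In the GENCODE M21 annotation the exons of 12 of the 45 genes overlap a gene on the opposite strand, among them Grn, Hexa, Lamp1 and Ppt1, and those of 2 (Atp6v0a4 and Glb1) overlap a gene on the same strand. The library kit does not mark strand, so reads from the overlapping stretches of such pairs cannot be told apart. The length of the overlaps was not measured.

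The sorted labels were checked against marker genes. The summed level of the 5 cMoP markers (Ms4a3, Kit, Mpo, Elane and Cd34) had a median of 15532 TPM in cMoP, 4.57 TPM in marrow monocytes and 6.50 TPM in blood monocytes. The 6 monocyte markers had median sums of 5757, 8985 and 5842 TPM. The 6 macrophage markers in the table summed to a median of 0 TPM in each population, with highest sums of 2.59, 1000.3 and 231 TPM. Osteoclasts carry the pump at high levels. The 6 osteoclast markers had median sums of 1.2, 0.83 and 0.89 TPM and highest sums of 269, 312 and 33.15 TPM. Dcstamp, Mmp9 and Calcr were at 0 in all cells, and in each population 1 marker was above 1 TPM in at least 10% of cells. The defining B and T cell genes Cd79a, Pax5, Cd3e, Cd3g and Trac were also at 0 in all cells. The 6 neutrophil markers had median sums of 0, 10.6 and 0.77 TPM and highest sums of 207, 1340 and 1734 TPM, with 1 of them higher by 3.28 in marrow monocytes than in cMoP and with Camp, Ltf, Ngp and Retnlg at 0 in all monocytes. The 4 basophil and mast cell markers reached a sum of 1560 TPM in cMoP (median 0) and were at 0 in all monocytes. The 6 dendritic cell markers had median sums of 11.3, 3.04 and 2.81 TPM and highest sums of 361, 1561 and 1124 TPM. The part of such transcripts in the differences below was not tested.

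Library complexity moved with the populations. The median number of genes above 1 TPM was 6661.5 in cMoP, 4719 in marrow monocytes and 4319.5 in blood monocytes. Mitochondrial transcripts took above 15% of TPM in 11 cMoP libraries and in 0 monocyte libraries. The flow cell of 60 cMoP libraries differs from that of the monocytes and the other 6 carry none in their label, so cMoP cannot be told apart from their flow cell. Marrow and blood monocytes shared 1 lane. The part that complexity plays in the differences below was not tested. Each was also taken in cells with 4500 to 6000 genes above 1 TPM that passed further limits. In them mitochondrial transcripts took at most 15% of TPM and ribosomal protein transcripts at least 1%. These 7 cMoP, 33 marrow and 14 blood monocytes are called cells with 4500 to 6000 genes below.

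The CLEAR element is shown first, because it is the sequence that TFEB and its relatives read. RefSeq promoters of 300 bases (build GRCm38.p6, 250 bases before the start of transcription and 50 after) matched 37 of the 45 genes. The 7-letter core TCACGTG, searched on both strands, stood in the promoters of 10 of the 37 genes, or 27%. Over all 27025 symbols with a promoter the share was 4.29%, and over the 7794 of them above 1 TPM in at least 10% of cells it was 7.34%. The 10 genes are Atp6v0b, Atp6v0d1, Atp6v0e, Atp6v1a, Gaa, Gla, Glb1, Lamp1, Lgmn and Mcoln1. The windows of 7 of them are printed 5′ to 3′ on the strand of the gene, with the core in capitals.
Lamp1: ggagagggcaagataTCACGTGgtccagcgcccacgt
Mcoln1: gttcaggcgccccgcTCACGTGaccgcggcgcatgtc
Atp6v1a: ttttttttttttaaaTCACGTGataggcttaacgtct
Atp6v0b: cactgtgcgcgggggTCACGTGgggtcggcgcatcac
Glb1: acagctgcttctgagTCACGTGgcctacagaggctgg
Gaa: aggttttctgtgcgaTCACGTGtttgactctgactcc
Lgmn: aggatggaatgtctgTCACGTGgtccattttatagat

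The Lamp1 window lies at chr8:13159084-13159120 on the plus strand, and its promoter holds 4 matches to the core. That of Mcoln1 lies at chr8:3500458-3500494 on the plus strand, and its promoter holds 3 matches, 2 of which overlap on opposite strands. The Atp6v1a window is at chr16:44139370-44139406 on the minus strand, where 2 matches overlap on opposite strands. The Atp6v0b window is at chr4:117887345-117887381 on the minus strand. The Glb1 window is at chr9:114401014-114401050 and the Gaa window at chr11:119267807-119267843, both on the plus strand. The Lgmn window is at chr12:102439121-102439157 on the minus strand. A match is a description of the letters and not evidence of binding.

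Genes with and without the core are set side by side. Of the 10 genes with the core, 0 were higher by at least 1 on the log2(TPM + 1) scale in marrow monocytes than in cMoP, and 3 (Atp6v1a, Gaa and Glb1) were lower by at least 1. Of all rows above 1 TPM in at least 10% of cells, 4.58% were higher and 35.7% lower. Of the 27 genes with a promoter but no core, 8 were higher and 3 lower. The letters GAGGAAG, part of the site of the myeloid factor PU.1, were searched after the levels had been seen. They stood in 7 of 37 promoters (18.9%), against 15.4% of all symbols and 16.1% of those above 1 TPM in at least 10% of cells. Of these 7 genes 3 were higher in marrow monocytes than in cMoP and 1 (Gusb) lower, and of the 30 without the letters 5 were higher and 5 lower. The windows of the 3 higher genes are printed with the match in capitals on the opposite strand for Gm2a and Laptm5.
Gm2a: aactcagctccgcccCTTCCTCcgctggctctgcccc
Laptm5: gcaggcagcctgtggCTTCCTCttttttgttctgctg
Lipa: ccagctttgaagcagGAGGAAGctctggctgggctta

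The Gm2a window is at chr11:55097934-55097970 and the Laptm5 window at chr4:130913262-130913298, both on the plus strand. The Lipa window is at chr19:34527636-34527672 on the minus strand.

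Lysosome transcripts took a larger share of the cell's mRNA in monocytes than in progenitors. Summed over the 45 genes, the median cell held 5813 TPM in cMoP (lowest 849, highest 9928). The marrow monocytes held a median of 11683 TPM (lowest 5740, highest 18041) and the blood monocytes one of 12726 TPM (lowest 1045, highest 18461). These medians are 0.581%, 1.17% and 1.27% of all TPM. Such sums follow the most abundant genes. Gene by gene, 24 of the 45 lay above 0 and 21 below 0 in marrow monocytes against cMoP, as differences of mean log2(TPM + 1). The ranges of the 3 populations overlap, but the lowest marrow monocyte lay near the cMoP median.

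The pump and the rest of the lysosome differed in this. The 21 V-ATPase genes summed to a median of 2817 TPM in cMoP, 3709 TPM in marrow monocytes and 3288 TPM in blood monocytes. The 24 other genes summed to 3141, 7773 and 8269 TPM. At the same time fewer of the 45 genes were found per cell, with a median of 31 above 1 TPM in cMoP, 29 in marrow monocytes and 26 in blood monocytes. That number moved with the genes found per cell in each population, at a Spearman rho of 0.75, 0.50 and 0.55 across 66, 57 and 38 cells, and both counts share the library.

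**Figure D1:**
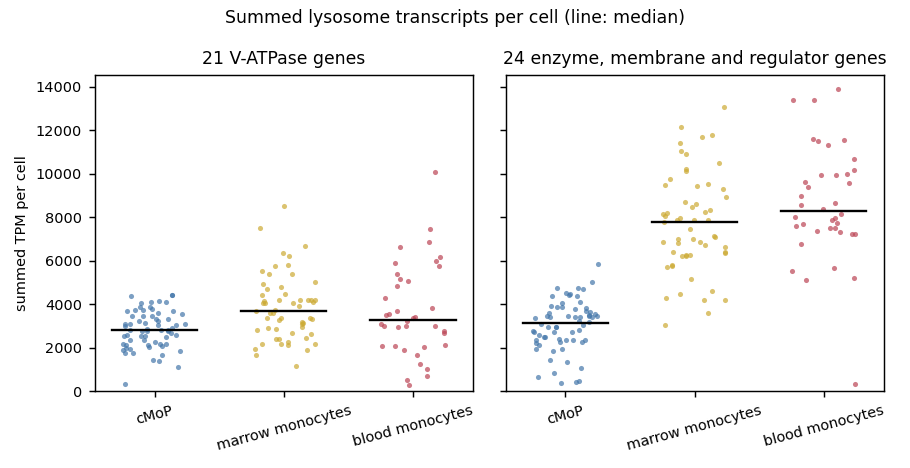
Summed TPM per cell of the 21 V-ATPase genes (left) and of the 24 enzyme, membrane and regulator genes (right) in cMoP, marrow monocytes and blood monocytes. Each point is 1 cell and the line is the median. The median of the 24 genes was 3141 TPM in cMoP, 7773 TPM in marrow monocytes and 8269 TPM in blood monocytes, while that of the pump genes stayed between 2817 and 3709 TPM.

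Single genes are described on 2 scales. The main value takes log2(TPM + 1) in each cell, averages it within a population and subtracts the earlier stage from the later, and a difference of 1 or more is called higher or lower. It weighs every cell alike and is lowered by cells at 0. The other is the log2 ratio of the mean TPM (each mean + 1), which follows the cells with the highest levels. Both are given where a called gene differs in sign between the scales.

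Of the 45 genes, 9 (20%) stood higher in marrow monocytes against cMoP, and 7 (15.6%) stood lower. Over all 24500 rows, 2.25% were higher and 17.6% lower. Among the 31 genes found above 1 TPM in at least 50% of all cells, 9 were higher and 5 lower (29% and 16.1%), against 8.5% and 46% of the 3941 such rows of the table. The 39 genes found in at least 10% of all cells gave the same 9 and 7 (23.1% and 17.9%), against 4.58% and 35.7% of such rows. The median difference of the 45 genes was 0.023, beside -0.068 over all rows and -0.58 over the 11987 rows above 1 TPM in at least 10% of cells. A median-ratio scaling between cells moved that last median to -0.38. On the ratio of mean TPM the median of the 45 genes was 0.65, with 16 higher and 2 lower. By that ratio 2913 of all 24500 rows were higher and 4400 lower. In cells with 4500 to 6000 genes, 15 were higher and 7 lower, against 6.67% and 13.9% of all rows.

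Fewer genes stood higher in blood than in marrow monocytes. Of the 45 genes, 1 (2.22%) was higher in blood monocytes and 9 (20%) were lower, against 1.12% and 5.52% of all rows. Among the 31 genes above 1 TPM in at least 50% of cells, 1 was higher and 9 lower (3.23% and 29%), near the 3.5% and 25.2% of all such rows. Among the 39 genes of at least 10% of cells, the 1 and 9 were 2.56% and 23.1%, against 2.24% and 11.3% of such rows. The median difference was -0.34 over the 45 genes, and 0.013 on the ratio of mean TPM. On that ratio 3 genes were higher and 5 lower, against 12.2% and 16.8% of all rows. In cells with 4500 to 6000 genes, 5 of the 45 genes were higher in blood monocytes and 5 lower, against 3.74% and 7.76% of all rows. Blood monocytes against cMoP share cells with both comparisons, and there 6 genes were higher and 14 lower (13.3% and 31.1%), against 2.45% and 21.5% of all rows. The 39 genes of at least 10% of cells gave 15.4% higher and 35.9% lower, against 4.92% and 43.8% of such rows, and the 31 genes of at least 50% of cells gave 19.4% and 35.5%, against 8.65% and 57.2%. Of the 14 lower genes, 6 turned positive on the ratio of mean TPM. They were Atp6v1d (-1.40, and 1.12 on the ratio), Tpp1 (-1.93 and 0.67), Lamp1 (-1.18 and 0.47), Atp6ap2 (-1.12 and 0.45), Atp6v0b (-1.09 and 0.41) and Atp6v1g1 (-1.10 and 0.37).

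**Figure D2:**
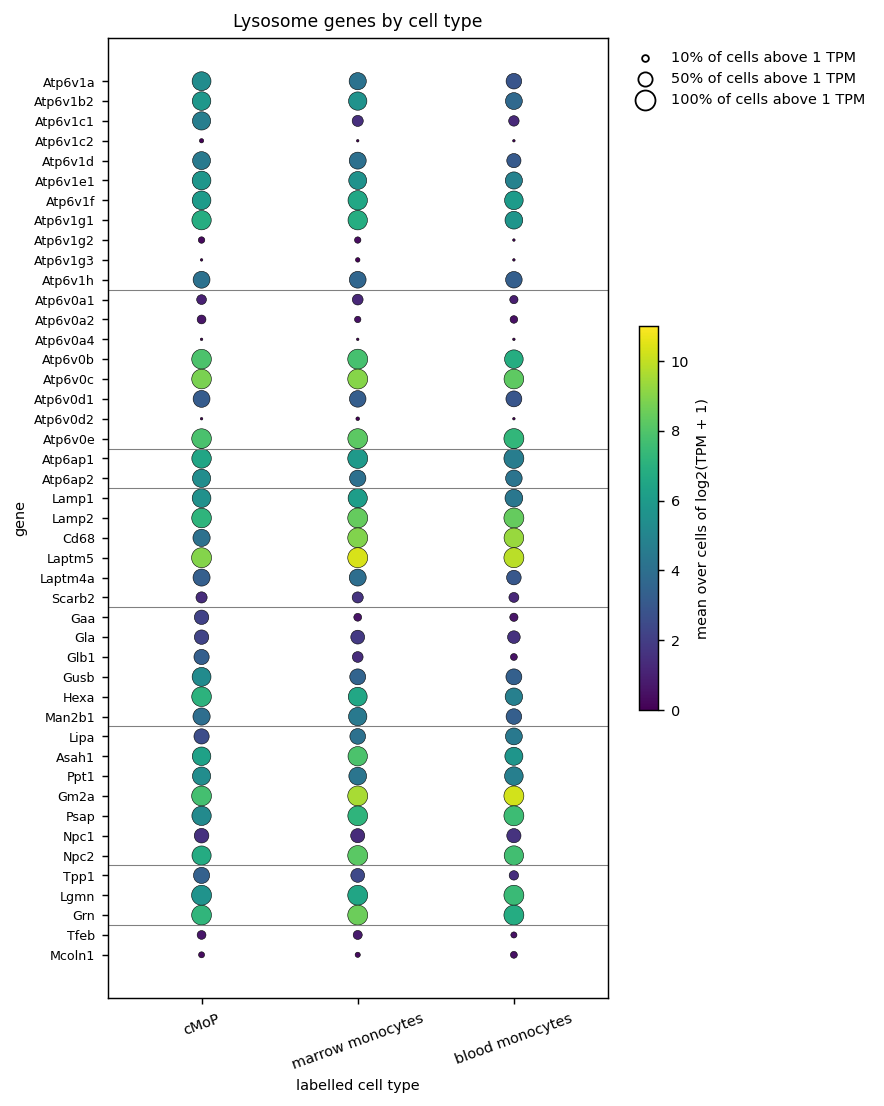
Levels of the 45 genes in the 3 populations, ordered by role from the V1 sector at the top to the regulator and channel at the bottom. Colour is the mean over cells of log2(TPM + 1) and point size the share of cells above 1 TPM. Laptm5, Gm2a, Cd68 and Atp6v0c are among the brightest rows in monocytes, and isoforms such as Atp6v0a4 and Atp6v0d2 are almost empty in all columns.

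The V1 sector splits ATP to turn the rotor of the pump. Of its 11 genes, 0 were higher and 2 lower in marrow monocytes than in cMoP, and 0 higher and 3 lower in blood than in marrow monocytes. The lower shares of 18.2% and 27.3% stand beside 35.7% and 11.3% of all rows above 1 TPM in at least 10% of cells, and 46% and 25.2% of those in at least 50%. Its medians were -0.25 and -0.55, and 0.65 and 0.00 on the ratio of mean TPM.

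Atp6v1c1, the broadly used form of the C subunit that joins V1 to V0, differed most among the pump genes between marrow monocytes and cMoP. It ranged from 0 to 899.7 TPM around a median of 42.9 in cMoP, from 0 to 233 TPM around a median of 0 in marrow monocytes, and from 0 to 361 TPM around a median of 0 in blood monocytes. It lay above 1 TPM in 83.3% of cMoP (95% exact interval 72.1 to 91.4), 29.8% of marrow monocytes (18.4 to 43.4) and 26.3% of blood monocytes (13.4 to 43.1). Most monocytes held none, and the monocytes that did overlapped the progenitors. The difference of marrow monocytes from cMoP was -3.18, and -2.34 on the ratio of mean TPM. Its relative Atp6v1c2 was above 1 TPM in 2 cMoP and listed at 0 in every monocyte.

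Atp6v1a encodes the A subunit that holds the site of ATP cleavage. It had a median of 55.2 TPM in cMoP (0 to 471), 15.3 TPM in marrow monocytes (0 to 953) and 3.79 TPM in blood monocytes (0 to 938). Its difference was -1.12 for marrow monocytes against cMoP, but 0.21 on the ratio of mean TPM, where the group means were 120.2 TPM in marrow monocytes and 104 TPM in cMoP. The difference of blood from marrow monocytes was -1.26, and -0.61 on the ratio.

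Atp6v1b2, the B subunit that pairs with A, had a median of 104 TPM in cMoP (0 to 576), 69.2 TPM in marrow monocytes (0 to 1766) and 6.16 TPM in blood monocytes (0 to 1494). The ranges overlap widely, and 12 of 38 blood monocytes lay above the marrow median. The difference of blood from marrow monocytes was -1.86, and -1.02 on the ratio of mean TPM. It was the only one of the 10 called differences in that comparison that stayed called under all 9 alternative settings. Of these settings, the filter on low values and the removal of cMoP without a flow cell could not change a called difference between these populations. Its kidney relative Atp6v1b1 was at 0 in every cell.

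Atp6v1g1, the broadly used G subunit of the stator, had medians of 190.0, 222 and 93.3 TPM in cMoP, marrow and blood monocytes, with highest cells at 723, 1747 and 1249.8 TPM. Blood differed from marrow monocytes by -1.09, and by 0.060 among cells above 1 TPM only, which were 78.9% of blood and 94.7% of marrow monocytes. Its neural relative Atp6v1g2 was above 1 TPM in 6 cMoP, 5 marrow monocytes and 0 blood monocytes. The other V1 subunits Atp6v1d, Atp6v1e1, Atp6v1f and Atp6v1h differed by less than 1 in both steps, between -0.52 and 0.54 for marrow monocytes against cMoP and between -0.94 and -0.34 for blood against marrow monocytes. On the ratio of mean TPM they ran from -0.14 to 0.86 in the first step and from 0.08 to 0.89 in the second. Atp6v1d, a subunit of the rotor shaft, had a median of 44.9 TPM in cMoP (0 to 238), 10.5 TPM in marrow monocytes (0 to 798) and 0.995 TPM in blood monocytes (0 to 1421).

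The V0 sector carries the protons across the membrane. Of its 8 genes, 0 were higher or lower by 1 in either step, at medians of 0.040 and -0.28, and 0.43 and -0.013 on the ratio of mean TPM. Of rows above 1 TPM in at least 10% of cells, 4.58% were higher and 35.7% lower in the first step. In the second step 2.24% were higher and 11.3% lower. Atp6v0c, the subunit that forms most of the turning ring, was the most abundant pump gene in each population by median and by mean. Its median was 605 TPM in cMoP (0 to 1634), 658 TPM in marrow monocytes (6.46 to 2178) and 461 TPM in blood monocytes (0 to 3928). Atp6v0b, a related subunit of the ring, had medians of 309.5 TPM in cMoP (0 to 1945), 287 TPM in marrow monocytes (1.84 to 2223) and 343 TPM in blood monocytes (0 to 2114). Atp6v0e, a small membrane subunit, had medians of 363, 384 and 262 TPM and differed between blood and marrow monocytes by -0.997, just under the threshold, and by 0.048 on the ratio of mean TPM.

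The large a subunit of V0 has tissue forms that place the pump in different membranes. Among the named forms, Atp6v0a1 lay above 1 TPM in 22.7%, 28.1% and 15.8% of cMoP, marrow and blood monocytes, and Atp6v0a2 in 18.2%, 8.77% and 13.2%. The renal form Atp6v0a4 was above 0 in 1 cell. Tcirg1, the form of lysosomes and osteoclasts, falls outside the symbol rule and was the one most cells held. It had a median of 98.2 TPM in cMoP (0 to 1027), 70.8 TPM in marrow monocytes (0 to 1593) and 17.8 TPM in blood monocytes (0 to 2690.3), and lay above 1 TPM in 98.5%, 87.7% and 76.3% of cells. For the d subunit, Atp6v0d1 had medians of 11.3, 10.8 and 5.24 TPM, and its osteoclast form Atp6v0d2 did not pass 1.52 TPM in any cell.

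The accessory proteins Atp6ap1 and Atp6ap2 help the pump assemble and reach its membrane. Atp6ap1 had a median of 133 TPM in cMoP (0 to 1300.2), 39.9 TPM in marrow monocytes (1.60 to 2119) and 8.46 TPM in blood monocytes (1.57 to 1261). Every monocyte was listed above 1 TPM, while 87.9%, 73.7% and 47.4% of cMoP, marrow and blood monocytes lay above 10 TPM. The ranges overlap widely. Blood differed from marrow monocytes by -1.30, and by 0.044 in cells with 4500 to 6000 genes. Atp6ap2, also known as the prorenin receptor, had medians of 67.2 TPM in cMoP (0 to 1251), 9.08 TPM in marrow monocytes (0 to 1553) and 10.9 TPM in blood monocytes (0 to 1173). It differed by -1.32 in marrow monocytes against cMoP, but by 0.11 on the ratio of mean TPM.

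Membrane proteins included Cd68, the gene with the widest gap among the 45. Of the 6, 3 (Cd68, Laptm5 and Lamp2) were higher in marrow monocytes than in cMoP and 0 lower, at a median of 0.96 and of 1.43 on the ratio of mean TPM. The 3 higher genes are 50% of the group. Of rows above 1 TPM in at least 10% of cells, 4.58% were higher and 35.7% lower. Cd68, a sialomucin of macrophage lysosomes, ranged from 0 to 752 TPM around 19.6 in cMoP. It ranged from 20.7 to 2677 TPM around 834 in marrow monocytes, and from 0 to 4494 TPM around 1238 in blood monocytes. All 57 marrow monocytes lay above the cMoP median, while 16 of 66 cMoP were listed at 0. The mean of log2(TPM + 1) was 8.91 ± 1.88 in marrow monocytes and 4.07 ± 3.25 in cMoP (SD over 57 and 66 cells), a difference of 4.84, and 3.13 on the ratio of mean TPM. The step to blood monocytes added 0.41.

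Laptm5, a lysosomal membrane protein of blood cells that helps route receptors to the lysosome, was above 1 TPM in all 161 cells. Its median was 599 TPM in cMoP (18.7 to 2195), 1483 TPM in marrow monocytes (156 to 4883) and 1377 TPM in blood monocytes (8.82 to 5000.3). The marrow monocytes were higher than cMoP by 1.35, and 48 of 57 lay above the cMoP median. Lamp2, which coats the lysosome and serves chaperone-mediated autophagy, had medians of 214 TPM in cMoP (0 to 667), 614 TPM in marrow monocytes (1.11 to 1841) and 581 TPM in blood monocytes (4.0 to 2269). It was higher by 1.26 in marrow monocytes than in cMoP and differed by -0.0071 between blood and marrow monocytes.

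Lamp1, the other main coat protein, followed another course. It had a median of 81.1 TPM in cMoP (0 to 383), 89.6 TPM in marrow monocytes (0 to 2518) and 14.6 TPM in blood monocytes (0 to 1487). Its difference was 0.54 for marrow monocytes against cMoP. Blood differed from marrow monocytes by -1.72, with 10 of 38 blood cells above the marrow median, and by -0.76 on the ratio of mean TPM. Laptm4a and Scarb2, a membrane protein that brings an enzyme to the lysosome, did not reach a difference of 1 in either step, with values from -0.94 to 0.65. On the ratio of mean TPM, Scarb2 stood at 1.94 in marrow monocytes against cMoP and at -1.84 in blood against marrow monocytes.

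**Figure D3:**
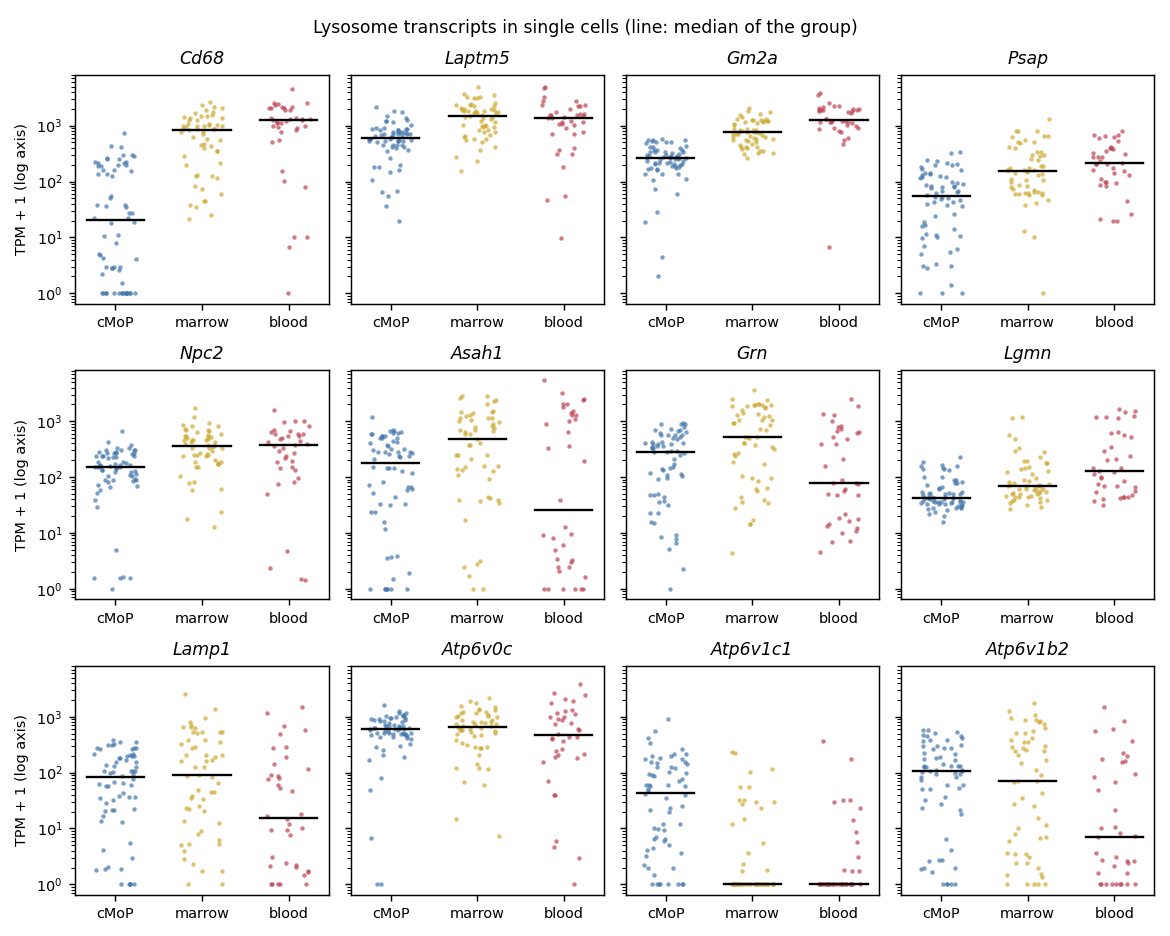
Level of 12 lysosome genes in every cell, as TPM + 1 on a log axis, for cMoP, marrow monocytes and blood monocytes. Each point is 1 cell and the line is the median of the population. Cd68 and Gm2a separate marrow monocytes from the cMoP median in all 57 cells, Atp6v1c1 lies at 0 TPM in most monocytes, and Asah1 and Grn spread widely in blood monocytes, around medians of 24.8 and 77.4 TPM.

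Lipid enzymes, activators and carriers formed the group with the most genes higher in marrow monocytes. Of 7, 5 (Psap, Gm2a, Asah1, Lipa and Npc2) were higher than in cMoP and 1 (Ppt1) lower, at a median of 1.5 and of 1.52 on the ratio of mean TPM. These are 71.4% and 14.3%, against 4.58% and 35.7% of rows above 1 TPM in at least 10% of cells. Of rows in at least 50% of cells, 8.5% were higher and 46% lower. Blood against marrow monocytes gave 0 higher and 1 lower, at a median of 0.39, against 2.24% and 11.3% of rows in at least 10% of cells.

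Gm2a, the activator that lifts gangliosides out of membranes for hexosaminidase A, had a median of 259 TPM in cMoP, where it ranged from 1.0 to 574 TPM. Its median was 755 TPM in marrow monocytes (259.8 to 2072) and 1258 TPM in blood monocytes (5.62 to 3891). All 57 marrow monocytes lay above the cMoP median, and 34 of 38 blood monocytes above the marrow median. The mean of log2(TPM + 1) was 9.54 ± 0.74 in marrow monocytes and 7.72 ± 1.43 in cMoP (SD over 57 and 66 cells), a difference of 1.83 and of 1.64 on the ratio of mean TPM. The step from marrow to blood added 0.69.

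Psap, the precursor of the saposins, had medians of 54.5 TPM in cMoP (0 to 332), 151 TPM in marrow monocytes (0 to 1332) and 211 TPM in blood monocytes (18.4 to 800.4). Its difference of 1.96 in marrow monocytes against cMoP was 1.65 on the ratio of mean TPM, and 51 of 57 marrow monocytes lay above the cMoP median. Npc2, which carries cholesterol inside the lysosome, had medians of 153 TPM in cMoP (0 to 678), 357 TPM in marrow monocytes (11.5 to 1708) and 367 TPM in blood monocytes (0.43 to 1609). It was higher by 1.47 in marrow monocytes than in cMoP. Its partner in the membrane, Npc1, had medians of 1.07, 0.89 and 0.98 TPM in cMoP, marrow and blood monocytes. Its highest cells lay at 86.6, 34.8 and 669 TPM, and the ratio of mean TPM was 2.51 for blood against marrow monocytes, at means of 25.1 and 3.57 TPM.

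Lipa, the acid lipase that cuts cholesteryl esters and triglycerides, was found in 57.6% of cMoP, 61.4% of marrow monocytes and 71.1% of blood monocytes above 1 TPM. Its median was 2.90 TPM in cMoP (0 to 405), 18.6 TPM in marrow monocytes (0 to 921) and 20.2 TPM in blood monocytes (0 to 1104). The share of cells with the transcript overlapped between populations within its intervals, and the difference of 1.5 in marrow monocytes against cMoP came with 31.6% of marrow monocytes and 7.58% of cMoP above 100 TPM.

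Asah1, the acid ceramidase, had its widest range in blood monocytes. It ranged from 0 to 1175 TPM around a median of 178 in cMoP, from 0 to 2848 TPM around 471 in marrow monocytes, and from 0 to 5356 TPM around 24.8 in blood monocytes. The marrow monocytes were higher than cMoP by 1.57. Blood differed from marrow monocytes by -2.16, but by 0.11 on the ratio of mean TPM, where the means were 773 TPM for blood and 715 TPM for marrow, and by 0.049 in cells with 4500 to 6000 genes. Of the blood monocytes, 18 of 38 lay above 100 TPM and 7 at or below 1 TPM. Ppt1, which strips fatty acids from proteins, had medians of 88.5, 7.33 and 7.40 TPM in cMoP, marrow and blood monocytes. Its difference of -1.09 in marrow monocytes against cMoP became 0.22 on the ratio of mean TPM.

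Glycosidases, which trim sugar chains, had no gene higher in either step. Of 6, 3 (Glb1, Gusb and Gaa) were lower in marrow monocytes than in cMoP and 2 (Hexa and Man2b1) lower in blood than in marrow monocytes, at medians of -1.05 and -0.59. The lower shares were 50% and 33.3%, against 35.7% and 11.3% of rows above 1 TPM in at least 10% of cells and 46% and 25.2% of those in at least 50%. On the ratio of mean TPM the medians were 0.15 and -0.35.

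Glb1, the acid beta-galactosidase, was found above 1 TPM in 57.6% of cMoP, 28.1% of marrow monocytes and 10.5% of blood monocytes. It had a median of 7.45 TPM in cMoP (0 to 376) and of 0 in both monocyte populations (highest 1130.2 in marrow and 101 in blood). Its difference was -1.86 in marrow monocytes against cMoP, and -0.40 on the ratio of mean TPM. Gaa, which degrades glycogen, was above 1 TPM in 51.5% of cMoP, 14% of marrow monocytes and 15.8% of blood monocytes, with highest cells at 511, 99.2 and 96.8 TPM. It differed by -1.59 in marrow monocytes against cMoP, and by -2.34 on the ratio of mean TPM. For both genes most monocytes were at or below 1 TPM.

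Gusb, the beta-glucuronidase, had medians of 55.1 TPM in cMoP (0 to 579), 6.23 TPM in marrow monocytes (0 to 1472) and 3.96 TPM in blood monocytes (0 to 871). It differed by -1.75 in marrow monocytes against cMoP, but by 0.17 on the ratio of mean TPM. Hexa, the alpha chain of hexosaminidase A and the enzyme that Gm2a serves, had medians of 205 TPM in cMoP (0 to 859.8), 222 TPM in marrow monocytes (0 to 1746) and 37.1 TPM in blood monocytes (0 to 1733). Blood differed from marrow monocytes by -1.78, and by -0.64 on the ratio. Man2b1, an alpha-mannosidase, had medians of 26.4, 17.1 and 1.75 TPM. Its difference of -1.15 in blood against marrow monocytes became 0.25 on the ratio of mean TPM and 0.030 among cells above 1 TPM. Gla, the alpha-galactosidase, differed by -0.33 in each step, and by 0.12 and -0.53 on the ratio of mean TPM.

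Among the proteases and granulin, Lgmn was the only one of the 45 genes called higher in blood than in marrow monocytes. It encodes legumain, an asparaginyl endopeptidase that cuts cathepsins to their mature form. Its lowest cell lay at 14.98 TPM in cMoP, 25.9 TPM in marrow monocytes and 30.7 TPM in blood monocytes, so it was present in every cell. The medians were 41.6, 67.3 and 127 TPM and the highest cells 225, 1184 and 1657 TPM. Cells above 100 TPM made up 13.6% of cMoP, 31.6% of marrow monocytes and 55.3% of blood monocytes. The mean of log2(TPM + 1) was 7.45 ± 1.84 in blood monocytes and 6.45 ± 1.25 in marrow monocytes (SD over 38 and 57 cells), a difference of 1.004 that lies at the threshold, and 1.74 in cells with 4500 to 6000 genes. Other genes passed the threshold beside it in that subset, where 5 were higher, and among cells above 1 TPM only and on the ratio of mean TPM, where 3 were. The difference of marrow monocytes from cMoP was 0.79.

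Grn, the precursor of the granulins, was above 1 TPM in every monocyte. It had a median of 278 TPM in cMoP (0 to 920.4), 525 TPM in marrow monocytes (3.40 to 3607) and 77.4 TPM in blood monocytes (3.63 to 2522). It was higher by 1.33 in marrow monocytes than in cMoP. In blood against marrow monocytes the difference was -1.77, and -1.10 on the ratio of mean TPM, with 12 of 38 blood cells above the marrow median. Tpp1, an aminopeptidase, was above 1 TPM in 65.2% of cMoP, 47.4% of marrow monocytes and 21.1% of blood monocytes, with medians of 9.44, 0.86 and 0 TPM and highest cells at 348, 643 and 1369 TPM. Its differences of -0.95 and -0.98 were just under the threshold, while the ratios of mean TPM were 0.31 and 0.36.

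The regulator and the channel were rare. Tfeb was above 1 TPM in 18.2% of cMoP, 19.3% of marrow monocytes and 7.89% of blood monocytes, with intervals that overlap. Mcoln1, the calcium channel of the lysosome, was above 1 TPM in 7.58%, 5.26% and 10.5% of cells. Whether these shares differ between populations was not tested. Both genes differed by less than 1 on the log2(TPM + 1) scale in every comparison. On the ratio of mean TPM, Mcoln1 in marrow monocytes and Tfeb in blood monocytes each stood more than 1 above cMoP. The remaining ratios of both genes were below 1 in either direction.

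**Figure D4:**
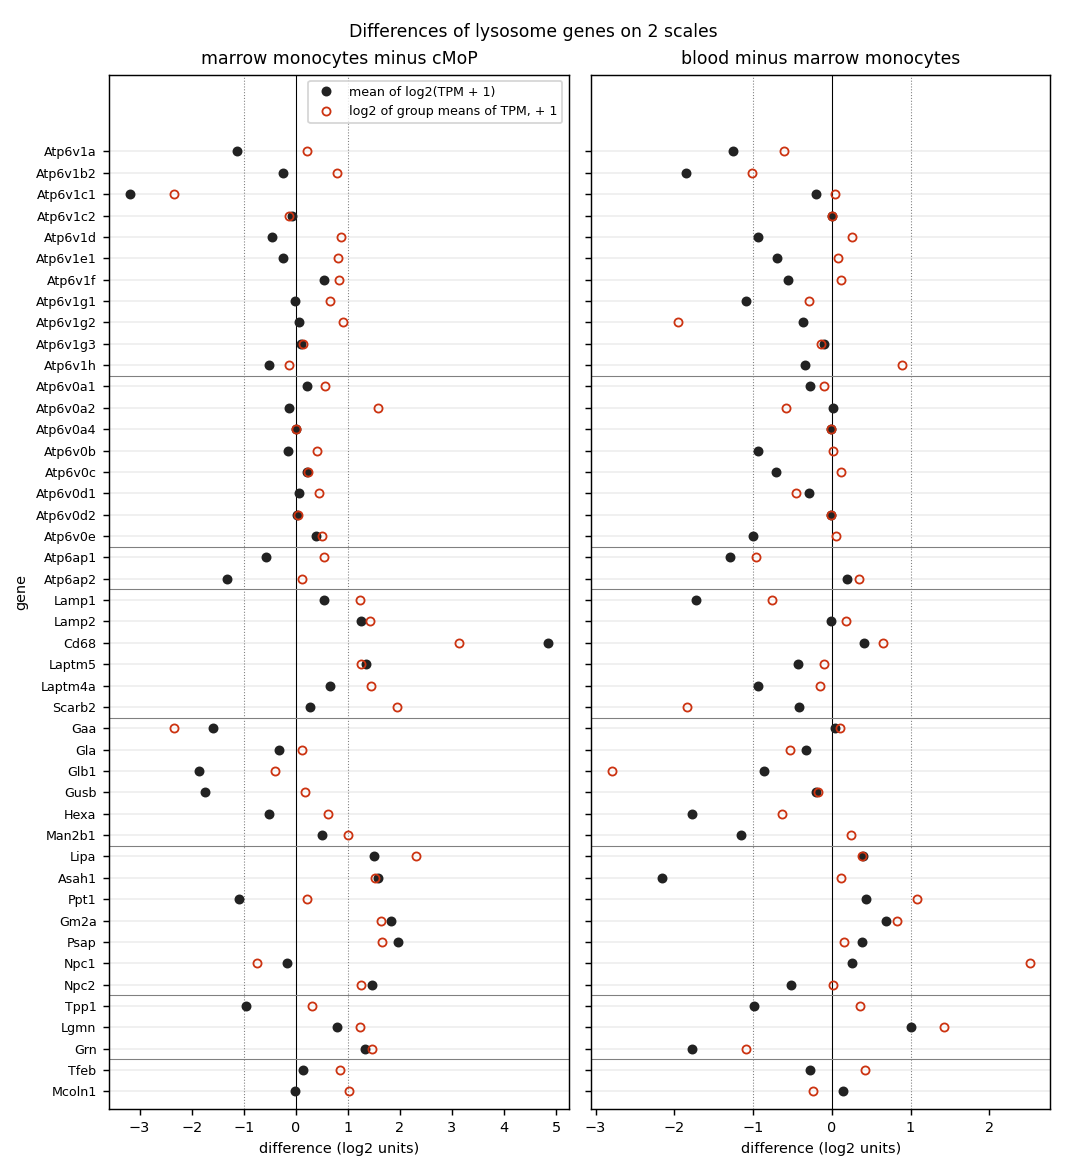
Differences of the 45 genes for marrow monocytes minus cMoP (left) and blood minus marrow monocytes (right), in log2 units. Filled points are differences of cell averages of log2(TPM + 1), open points the log2 ratio of mean TPM, and dotted lines mark a difference of 1 in either direction. Cd68 stands at 4.84 on the left, Atp6v1c1 at -3.18, and several genes such as Asah1 on the right (-2.16 and 0.11) have points on opposite sides of 0.

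The wider pathway was read from 6 further lists. For marrow monocytes against cMoP, the 11 measured V-ATPase partners and assembly factors had 0 higher and 6 lower, led by Rogdi at -2.95, Ccdc115 at -2.64, Vma21 at -1.94 and Tmem199 at -1.66, the last 3 being factors that assemble the pump. On the ratio of mean TPM, Tmem199 stood at 0.36. The 28 other hydrolases had 2 higher, among them Scpep1 at 1.22, and 6 lower, among them Dnase2a at -2.08 and Aga at -1.71. The 15 other membrane proteins had 1 higher, the acetyltransferase Hgsnat at 1.34, and 7 lower, among them Cd63, listed at 0 in every monocyte, Cd164 at -2.25 and the chloride exchanger Clcn7 at -1.54.

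Genes that bring enzymes to the lysosome were lower in marrow monocytes in 4 of 9 cases and higher in 0. They were Gnptab at -2.12, Gga2 at -2.07, the mannose 6-phosphate receptor M6pr at -1.88 and Nagpa at -1.34. The 16 relatives of TFEB and nutrient sensors had 0 higher and 5 lower, led by Tfec at -3.98, Lamtor2 at -2.50, the kinase Mtor at -1.59 and Lamtor1 at -1.40. The 11 measured genes of lysosome movement and tethering had 0 higher and 7 lower, with Vps16 at -2.99, Arl8b at -2.21 and Bloc1s2 at -2.20. The lower counts of these lists run from 21.4% to 63.6%, and 35.7% of all rows above 1 TPM in at least 10% of cells were lower. The higher counts of the 6 lists run from 0% to 7.14%, and 4.58% of such rows were higher. On the ratio of mean TPM, Arl8b stood at 0.45 and Lamtor1 at 0.049, and the medians of the 6 lists ran from -0.27 to 0.66.

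Blood against marrow monocytes gave 2.24% higher and 11.3% lower over all rows above 1 TPM in at least 10% of cells, and the same 6 lists are set beside these shares. The V-ATPase partners had 0 of 11 in either direction, the other hydrolases 0 higher and 2 lower of 28, among them Galns at -1.37, and the other membrane proteins 0 higher and 1 lower of 15 (Hgsnat at -1.63). Of the 9 delivery genes, 0 were higher and 1 (Sort1 at -1.12) lower. The TFEB relatives and nutrient sensors had 0 higher and 4 lower of 16 (25%), all 4 of them Lamtor genes of the Ragulator scaffold that holds mTORC1 at the lysosome. They were Lamtor2 at -1.95, Lamtor3 at -1.73, Lamtor1 at -1.61 and Lamtor4 at -1.36, with Lamtor1 at 0.0085 on the ratio of mean TPM. The movement and tethering genes had 1 higher (Vps16 at 1.09) and 2 lower (Bloc1s1 at -1.53 and Bloc1s2 at -1.41) of 11.

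Covariation from cell to cell was read within each population, for the more widely found of the 45 genes. Pairs were taken of genes above 1 TPM in at least 50% of the population's cells. The median Spearman rho was 0.14 across 66 cMoP (35 genes, 595 pairs, -0.39 to 0.53). It was 0.0074 across 57 marrow monocytes (29 genes, 406 pairs, -0.47 to 0.38). Across 38 blood monocytes it was 0.048 (30 genes, 435 pairs, -0.44 to 0.54). Pairs of other genes were not set beside these medians. The values share libraries and their complexity, and no pair is singled out.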

How the data were processed

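Single cells were sorted, captured on a C1 integrated fluidic circuit, reverse transcribed with oligo(dT) primers and made into Nextera XT libraries, per the labels' protocols. The values are TPM that the authors made with RSEM 1.2.19 on GRCm38, per the submitters' processing notes. As to the aligner and the gene annotation, neither is given in the sources used here. Column sums ran from 997939 to 999955 TPM, no column was left unmatched, and since TPM retains no count of reads, depth is unknown.

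The genes and lists were chosen with earlier results of these data known, and no list count is independent support. Groups came from the labelled cell type. Differences of the mean over cells of log2(TPM + 1) were taken with a pseudocount of 1, which understates differences of low genes, and an absolute difference of at least 1 (2-fold on that scale) was called. With 1 sample per group, no p-value was computed. Detection shares have 95% exact (Clopper-Pearson) intervals for the number of cells, which leave out any spread between animals, and a count of 0 cells is given with the share that 3 cells would make. All 45 genes could be named, with levels or shares of cells for those called in any comparison and for pump isoforms, and up to 4 genes of each other list and comparison with the largest difference. Tcirg1, Tfe3 and Mitf were given outside that rule, after their values were seen, as the pump form the symbol pattern misses and relatives of TFEB. Some genes of the other lists are not reported here. Promoters came from RefSeq (GRCm38.p6), matched by symbol, and 8 genes had no entry. Exon overlaps came from the GENCODE annotation given as a reference, which may not be the one the authors used. Difference functions were tested on simulated data. Alternatives were another scale, pseudocounts of 0.1 and 10, median-ratio scaling, a filter on low values, 3 restrictions on cells and a restriction to cells above 1 TPM. Analyses used Python 3.11.15, numpy 2.4.6, pandas 2.3.3, scipy 1.17.1 and matplotlib 3.10.9.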

Additional observations from a re-analysis of the deposited data

How the results depend on the processing

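Cells were taken once each, and leaving out a replicate does not apply, since each population is 1 sample. No paired analysis was possible because the labels carry no replicate numbers and no test was run. Of the 16 genes called in marrow monocytes against cMoP, 6 (Asah1, Cd68, Gm2a, Grn, Lipa and Psap) kept their call under all 9 alternatives, and of the 10 called in blood against marrow monocytes, 1 (Atp6v1b2) did. Not every alternative could change a call. The filter on low values leaves the difference of each called gene as it was, and leaving out cMoP cannot alter blood against marrow monocytes. The causes of the changes were not tested.

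On the log2 ratio of mean TPM, the medians for marrow monocytes against cMoP were 0.65 over the 45 genes and 0.45 over the V-ATPase genes. Of the 45 genes 16 were higher and 2 lower, beside 2913 and 4400 of all 24500 rows. Atp6v1a (0.21), Atp6ap2 (0.11), Gusb (0.17) and Ppt1 (0.22) turned positive. For blood against marrow monocytes the median was 0.013, with 3 higher and 5 lower, beside 12.2% and 16.8% of all rows. Man2b1 (0.25) and Asah1 (0.11) turned positive. For blood monocytes against cMoP the medians were 0.47 and 0.35, with 15 higher and 4 lower, beside 14.6% and 23.6% of all rows.

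In cells with 4500 to 6000 genes, marrow monocytes against cMoP gave medians of 0.73 and, for the V-ATPase, 0.44. There 15 genes were higher, beside 6.67% of all rows. Blood against marrow monocytes gave 5 higher and 5 lower, beside 3.74% and 7.76% of all rows, with Atp6ap1 at 0.044 and Asah1 at 0.049. Blood monocytes against cMoP gave medians of 0.38 and 0.00, with 14 higher and 7 lower, beside 7.77% and 17.6% of all rows. Among cells above 1 TPM only, 1 gene was lower in marrow monocytes than in cMoP, beside 12.7% of all rows measured that way. For blood against marrow monocytes 3 were higher, beside 11.3%, with Atp6v1g1 at 0.060 and Man2b1 at 0.030. For blood monocytes against cMoP 4 were lower, beside 19.2%.

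A pseudocount of 10 left 1 gene lower (all rows 6.88%) and a V-ATPase median of 0.0036 for marrow monocytes against cMoP. For blood against marrow monocytes it gave 0 higher and 5 lower (all rows 0.4% and 1.67%). For blood monocytes against cMoP it gave 7 lower (all rows 9.82%). A pseudocount of 0.1 gave 15 lower for blood against marrow monocytes (all rows 10.3%). Median-ratio scaling gave a V-ATPase median of 0.10 and 4 lower for marrow monocytes against cMoP (all rows 14.2%). It gave 9 lower for blood monocytes against cMoP (all rows 17.9%). Without the 6 cMoP that lack a flow cell, the V-ATPase median for marrow monocytes against cMoP was 0.0087. Without the libraries high in mitochondrial or low in ribosomal protein transcripts, the median of the 45 genes for marrow monocytes against cMoP was -0.071, and the V-ATPase median for blood monocytes against cMoP was -1.13. The count of promoters with CACGTG alone was also 10 (27%), against 11.9% of symbols above 1 TPM in at least 10% of cells.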

Other observations

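Of the relatives of TFEB, Tfec, a factor of the same family found mainly in myeloid cells, differed most. It had a median of 49.3 TPM in cMoP (0 to 445) and of 0 TPM in marrow monocytes (0 to 234), and was listed at 0 in every blood monocyte. Cells above 1 TPM numbered 51 of 66 among cMoP, 11 of 57 in the marrow and 0 of 38 in blood, and with 0 found, shares up to 7.89% (3 in 38) remain possible by counting error alone. Marrow monocytes differed from cMoP by -3.98 on the log2(TPM + 1) scale, and by -3.10 on the ratio of mean TPM. Tfe3 lay above 1 TPM in 51.5%, 49.1% and 52.6% of cMoP, marrow and blood monocytes, and Mitf in 15.2%, 15.8% and 5.26%.

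Cd63, a tetraspanin of lysosomes and granules, was above 1 TPM in 27 of 66 cMoP (40.9%, 95% exact interval 29 to 53.7), with a highest cell at 934 TPM. It was listed at 0 in all 57 marrow monocytes and all 38 blood monocytes, which allows shares of up to 5.26% and 7.89% (3 cells of each), for counting error only. The monocytes share 1 lane, and the 60 cMoP libraries with a labelled flow cell were on another, so the populations and their lanes cannot be told apart here. Whether the zeros come from the cells or from the way the libraries were counted was not tested. Laptm5 and Lamp2 were above 1 TPM in 100% and 97.0% of the same cMoP.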
